A study of Mus musculus with 6 samples.

Results

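A group of 10 genes of reactive gliosis and retinal injury were followed in the retina of Atrx knockout and control mice: Gfap, Lcn2, Serpina3n, Socs3, Stat3, Edn2, Fgf2, Cebpd, Ednrb and Lif. They were chosen by name, as the probe sets annotated with exactly 1 of these symbols, which gave 11 probe sets among 41345. All 10 genes passed the brightness filter, so they are 10 of the 15619 genes tested; Socs3 alone had a second probe set.

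The tissue was the entire retina of male mice at age P17 (postnatal day 17), with the retinas of both eyes of a mouse pooled, and total RNA was hybridised to Affymetrix mouse gene arrays. The 3 knockout mice were Chx10Cre+/-;Atrx flox/y and the 3 controls were Chx10Cre-/-;Atrx flox/y littermates. The controls, which the titles call wildtype, thus carry the floxed allele as well, and all knockouts but no control carry Cre, so Cre itself and the loss of Atrx cannot be told apart here. This Cre acts in retinal progenitors; Muller glia descend from those progenitors, while retinal astrocytes, microglia and vessels come from elsewhere. The series' design places the height of amacrine and horizontal cell loss at this age. The comparison asks whether genes of glial reaction and injury differ between the genotypes at that time.

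Muller glia span the retina and, with the astrocytes of the nerve fibre layer, answer neuronal injury by gliosis. In injured retina photoreceptors and glia release signals such as leukemia inhibitory factor (Lif), endothelin 2 (Edn2) and fibroblast growth factor 2 (Fgf2). Lif acts through the receptor pair of Lifr and Il6st (gp130) on the transcription factor Stat3, which drives Gfap and its own inhibitor Socs3; Cebpd acts beside it on acute-phase genes such as Lcn2 and Serpina3n. Endothelins reach glia through Ednrb.

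Values are log2 expression after RMA normalization, and a log2 change is knockout minus wildtype. Atrx was lower in all 3 knockouts (8.42, 8.72 and 8.33) than in the wildtypes (9.04, 8.86 and 9.17), with a change of -0.53 (SE 0.12, adjusted p = 0.115 in limma's test). Array values correlated with Pearson's r of 0.975 to 0.993 across the genes tested. Rod genes were bright, with a mean of 6 genes of 11.97 to 12.07 per array. Of 7 amacrine cell genes 4 fell by the test, against 0.346% of all tested genes; the list was chosen with earlier results of these data known. The 4 were Slc5a7 (-1.56), Gad1 (-0.68), Chat (-0.62) and Slc6a5 (-0.58). Slc5a7 passed in the 16 alternatives run for it, and the other 3 lost the call when knockout 1, knockout 3, wildtype 2 or wildtype 3 was left out, among other settings. Of 6 horizontal cell genes none passed the test. Their median change was -0.09, with 5 below 0, and 2 lay lower in all 3 knockouts without overlap (9.58% of all tested genes did so). Lens genes were high on knockout 2 (mean of 13 genes 9.78) and wildtype 1 (11.16) against 5.66 to 6.09 on the other 4 arrays, so results are also given without those 2 arrays. Retinal RNA measured in bulk does not tell fewer cells of a type from less RNA per cell. The labels name separate mice only through the word mouse in each sample's source. The p-values set each difference against the spread within these 3 and 3 samples, which limma moderates over all genes tested.

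None of the 10 genes passed the threshold of adjusted p under 0.05 in limma's test, where 0.826% of all tested genes did (0.48% higher and 0.346% lower in knockout). Gfap and Lcn2 reached an unadjusted p under 0.05, as did 13.5% of all tested genes. For 3 of the 10 the knockout and wildtype values did not overlap, against 20.3% of all tested genes. Gfap and Stat3 were the 2 with knockout on the higher side (10.7% of all genes) and Lcn2 the 1 on the lower side (9.58%). These shares lie near the background. The median log2 change of the 10 was -0.05, with 4 above 0 and 6 below; the median over all tested genes was 0.0027. With 3 against 3 arrays, an exact permutation test cannot go below p = 0.1, the value that Gfap, Lcn2 and Stat3 each had (2-sided).

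**Figure D1:**
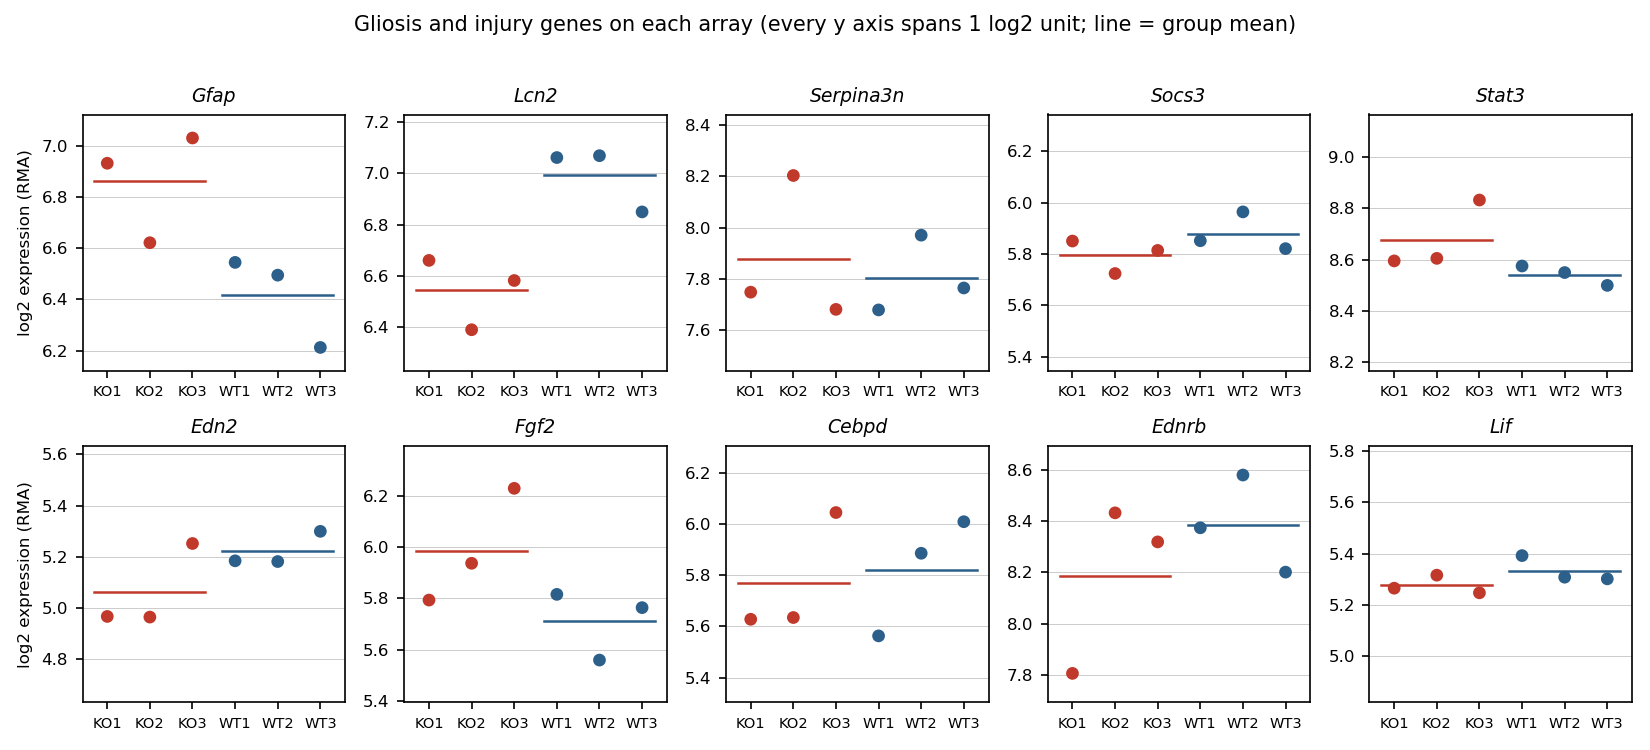
Log2 expression (RMA) of the 10 genes on each array, knockout 1 to 3 (KO, red) and wildtype 1 to 3 (WT, blue); lines are group means of 3, and every y axis spans 1 log2 unit. Gfap and Stat3 lie higher and Lcn2 lower on all 3 knockout arrays, and the other 7 genes overlap.

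Gfap, the intermediate filament protein of astrocytes that Muller glia make under stress, measured 6.93, 6.62 and 7.03 in knockout and 6.54, 6.49 and 6.21 in wildtype retina. The groups did not overlap, and knockout 2 lay nearest to the wildtypes. The difference was 0.44 (SE 0.13, 95% interval 0.14 to 0.74), a 1.36-fold higher mean, with an adjusted p of 0.195. A change of that size or larger in either direction was found in 2.27% of all tested genes. Without the 2 lens-rich arrays it was 0.63 (adjusted p = 0.146). Over all alternatives it ran from 0.34 to 0.63, and the adjusted p from 0.0853 to 0.447.

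Lcn2, which encodes the secreted siderophore-binding protein lipocalin 2, went the other way. Its values were 6.66, 6.39 and 6.58 in knockout against 7.06, 7.07 and 6.85 in wildtype retina, with no overlap. The log2 change was -0.45 (SE 0.10, 95% interval -0.68 to -0.22; adjusted p = 0.104). Lcn2 had the smallest adjusted p of the 10 genes, and without the lens-rich arrays its change was -0.34 (adjusted p = 0.305). Over the alternatives the adjusted p ran from 0.0575 to 0.377. Lcn2 is also a neutrophil granule gene. Of 8 neutrophil genes 5 did not pass the filter, among them S100a8 with a highest value of 3.09. The other 3 averaged 5.08 to 5.31 per array, near the floor of 5, with overlapping groups. The part of neutrophil RNA in the Lcn2 values was not tested.

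Serpina3n, a secreted protease inhibitor and a usual marker of reactive astrocytes, measured 7.75, 8.20 and 7.68 in knockout and 7.68, 7.97 and 7.76 in wildtype retina. The single high value was that of knockout 2, 1 of the lens-rich arrays. The change was 0.07 (SE 0.15, 95% interval -0.26 to 0.41), and it turned to -0.09 without knockout 2 and to -0.15 without both lens-rich arrays. Gfap, Lcn2 and Serpina3n, which are usually named together as reactive markers, thus had a positive difference, a negative difference and a difference whose sign rested on 1 array.

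**Figure D2:**
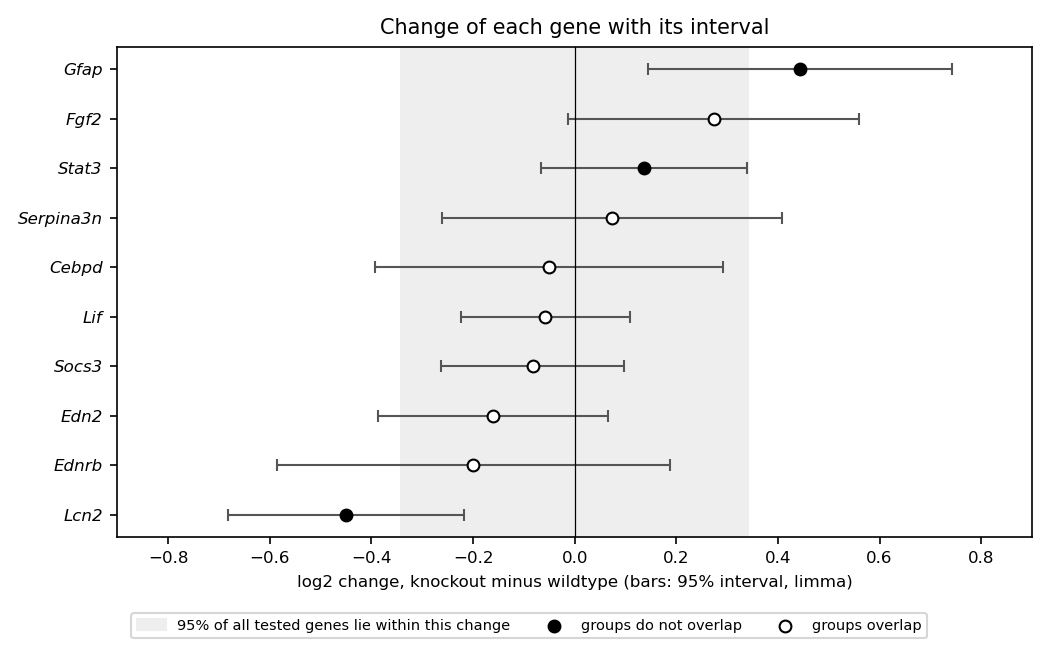
Log2 change of each gene (points) with its 95% interval from limma (bars); filled points mark genes whose 3 knockout and 3 wildtype values do not overlap, and the grey band holds 95% of all tested genes by absolute change (0.342). Gfap (0.44) and Lcn2 (-0.45) lie outside the band on opposite sides, and the intervals of the other 8 genes include 0.

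Among the secreted signals, Lif had the smallest range over the 6 arrays (0.15) of the 10 genes. It measured 5.27, 5.32 and 5.25 in knockout and 5.39, 5.31 and 5.30 in wildtype retina. The change was -0.06 (SE 0.072), and its 95% interval of -0.22 to 0.11 reaches no further than 1.08-fold up and 1.17-fold down. It was -0.03 without wildtype 1. Lif lay just above the filter's floor of 5 on every array, in the range where RMA values hold much background signal and folds are compressed.

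Edn2, the endothelin that photoreceptors make when injured, was dim too, at 4.97, 4.97 and 5.25 in knockout and 5.18, 5.18 and 5.30 in wildtype retina. Knockout 1 and 2 lay below the floor of 5, and knockout 3 lay among the wildtypes. The change was -0.16 (SE 0.099, 95% interval -0.39 to 0.07), with an adjusted p of 0.521; it was -0.26 without knockout 3. On the array scale the interval of all 6 arrays reaches 1.05-fold up and 1.31-fold down.

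Fgf2, a survival factor for photoreceptors, measured 5.79, 5.94 and 6.23 in knockout and 5.82, 5.56 and 5.76 in wildtype retina. Knockout 3 was the highest array and wildtype 2 the lowest, and knockout 1 fell within the wildtype range. The change of 0.27 (SE 0.12, 95% interval -0.01 to 0.56) had an adjusted p of 0.389. It was 0.15 without knockout 3 and 0.37 without knockout 1.

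Stat3 is the transcription factor on which Lif signalling converges. Its values were 8.60, 8.61 and 8.83 in knockout and 8.58, 8.55 and 8.50 in wildtype retina. The groups did not overlap, but only knockout 3 stood clear: knockout 1 lay 0.02 above wildtype 1. The change was 0.14 (SE 0.088, 95% interval -0.07 to 0.34; adjusted p = 0.542). Without knockout 3 it was 0.06, and without the lens-rich arrays 0.19.

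Socs3, the feedback inhibitor that Stat3 induces, measured 5.85, 5.72 and 5.81 in knockout and 5.85, 5.96 and 5.82 in wildtype retina. The change was -0.08 (SE 0.079, 95% interval -0.26 to 0.10), and it was -0.05 without knockout 2 and -0.04 without wildtype 2. A second, dimmer Socs3 probe set stayed under the floor on all arrays (3.83 to 4.13) and had a difference of 0.06. Socs3 is often read as a sign of Stat3 activity, but neither gene was called and both intervals include 0. Socs3 was also dim and was not tested with a floor of 6.

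Socs3 was also the 1 gene of 9 with a promoter entry whose 250 bases before the start hold the palindrome TTCNNNGAA, the core that STAT factors bind, which reads the same on both strands. Of all 32851 RefSeq promoter entries 7.02% hold it. The stretch around the match is printed because Socs3 is the feedback arm of the pathway. This stretch covers chr11:117969492-117969540 on the minus strand of GRCm38.p6, with the match in capitals. The match begins 154 bases before the start. The match is a description of the letters and no evidence of binding.
Socs3 promoter: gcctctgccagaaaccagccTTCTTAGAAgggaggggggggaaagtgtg

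Cebpd, a transcription factor of acute-phase genes, measured 5.63, 5.63 and 6.04 in knockout and 5.56, 5.89 and 6.01 in wildtype retina. Each group held both low and high arrays, and the change was -0.05 (SE 0.15, 95% interval -0.39 to 0.29). It turned to 0.02 without knockout 1 or without knockout 2, and to 0.04 without wildtype 3. The 3 arrays low in Cebpd (knockout 1, knockout 2 and wildtype 1) were also the 3 lowest in the mean of 7 retinal pigment epithelium genes, at 8.66, 8.65 and 8.35 against 9.09, 9.22 and 8.93 on knockout 3, wildtype 2 and wildtype 3. Rrh, a member of that list, was instead lower on knockout 3 (8.08) than on knockout 1 (8.11) and knockout 2 (8.18). The part of pigment epithelium RNA in the Cebpd values was not tested.

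Ednrb, the endothelin receptor of Muller glia and also of melanocytes, had the largest SE of the 10 genes. It measured 7.81, 8.43 and 8.32 in knockout and 8.37, 8.58 and 8.20 in wildtype retina. Knockout 1 stood apart as the lowest array, and wildtype 2 was the highest. The change was -0.20 (SE 0.17, 95% interval -0.59 to 0.19), and it shrank to -0.0093 without knockout 1. It was -0.32 without knockout 2, -0.10 without wildtype 2 and -0.33 without both lens-rich arrays. The mean of 7 melanocyte genes had the same low array, at 7.77 on knockout 1 and 9.13 and 8.99 on the other knockouts. On the wildtypes it was 8.80, 9.23 and 8.95. Sox10, a dim member of that list, was instead lowest on knockout 2 (5.22, against 5.28 on knockout 1). Pmel, a melanosome protein, was at 9.18 on knockout 1 and at 10.60 or more elsewhere, and Dcn, a stromal proteoglycan, at 7.74 against 9.45 to 9.92. Krt12, on the same cornea list as Dcn, was lowest on knockout 3 (5.58, against 5.61 on knockout 1). The part of pigmented or stromal tissue in the Ednrb values was not tested.

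**Figure D3:**
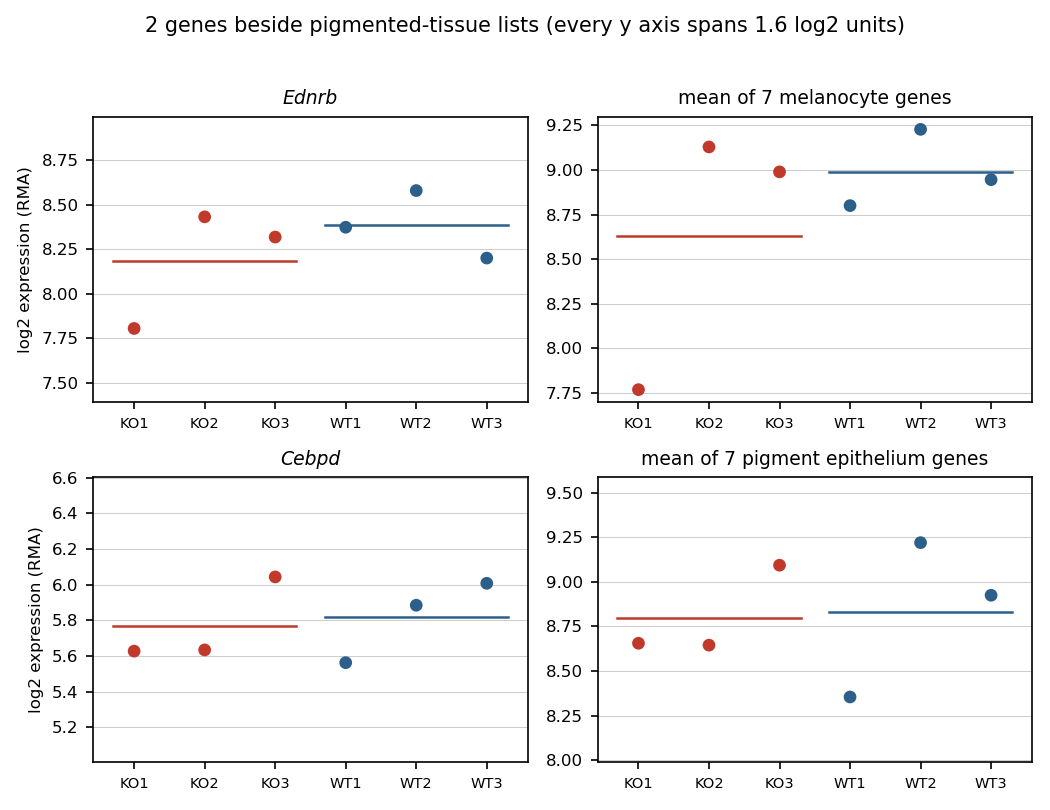
Log2 expression (RMA) on each array, knockout in red and wildtype in blue, lines for group means of 3, every y axis spanning 1.6 log2 units: Ednrb beside the mean of 7 melanocyte genes, and Cebpd beside the mean of 7 retinal pigment epithelium genes. Ednrb and the melanocyte mean are both lowest on knockout 1 (7.81 and 7.77), and Cebpd and the pigment epithelium mean share their 3 lowest arrays.

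Knockout 3 gave the highest knockout value for 5 of the 10 genes (Gfap, Stat3, Edn2, Fgf2 and Cebpd), knockout 2 for 3 and knockout 1 for 2. Wildtype 3 gave the lowest wildtype value for 6 of the 10. The glia and immune cells that could make these transcripts were followed by marker lists. The mean of 13 Muller glia genes was 9.11 to 9.18 per array, with a knockout minus wildtype difference of 0.03. That mean hides members going both ways: 2 lay higher and 4 lower in all 3 knockouts without overlap. Over all tested genes 10.7% lay higher and 9.58% lower in this way. The mean of 10 microglia and macrophage genes was 6.32 to 6.47 per array, with a difference of -0.02 and no member without overlap. The 4 tested retinal astrocyte genes, Gfap among them, averaged 6.38 to 6.75, with a difference of 0.16. Also on that list, Pax2, their defining factor, was under the floor on every array (highest value 4.64), and S100b measured 6.50, 6.43 and 6.44 in knockout against 6.29, 6.25 and 6.22 in wildtype retina (change 0.20, adjusted p = 0.271). The other 2 tested astrocyte genes overlapped between groups, Pdgfra at 0.06 and Aldh1l1 at -0.08, and both changed sign without knockout 2; Aldh1l1 was added after its values were seen. Within the Muller glia list Abca8a had a change of 0.44 (adjusted p = 0.066), Dkk3 of -0.26 and Rlbp1, the retinaldehyde-binding protein, of -0.20; none was called.

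Around the 10 genes, 12 lists of the same pathways held 114 other tested genes. Of these 1 was called (0.877%, against 0.826% of all tested genes), and 27 did not overlap between groups, 11 with knockout higher and 16 lower (23.7% against 20.3%). Their median log2 change was -0.04.

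The 1 called gene was Lifr, the receptor subunit that binds Lif. It rose in knockout retina, with 9.64, 9.82 and 9.57 against 9.11, 9.07 and 9.23 in wildtype retina. The gap of 0.34 between the groups was wider than the range within knockout (0.25) or wildtype (0.15) arrays. The change was 0.54 (SE 0.091, 95% interval 0.33 to 0.75), a 1.45-fold higher mean, with an adjusted p of 0.045. The call was lost whichever single array was left out (changes 0.46 to 0.59, adjusted p from 0.065 to 0.222), and without both lens-rich arrays (0.45, adjusted p = 0.181). It was also lost with no filter on dim probe sets (adjusted p = 0.117), with median centring (0.067), with the lens covariate (0.066) and with the replicate number as a block (0.139).

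Other parts of that receptor system did not pass the test. Osmr, the oncostatin M receptor subunit, had values of 7.27, 7.37 and 7.31 in knockout and 6.84, 7.18 and 7.04 in wildtype retina (change 0.30, adjusted p = 0.249; 0.18 without the lens-rich arrays). The signalling subunit shared by the family, Il6st, was at 0.0026, a value without a stable sign, and was added to the named genes after its values were seen. Clcf1, a ligand of the same family, measured 5.86, 5.81 and 5.83 in knockout against 6.08, 6.06 and 5.95 in wildtype retina (change -0.20, adjusted p = 0.302). The ligands Il6, Il11 and Osm did not pass the filter, and Cntf and Il11ra1 were not analysed here. In the list of 8 tested ligands and receptors 3 were above 0 and 5 below, with a median of -0.06.

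**Figure D4:**
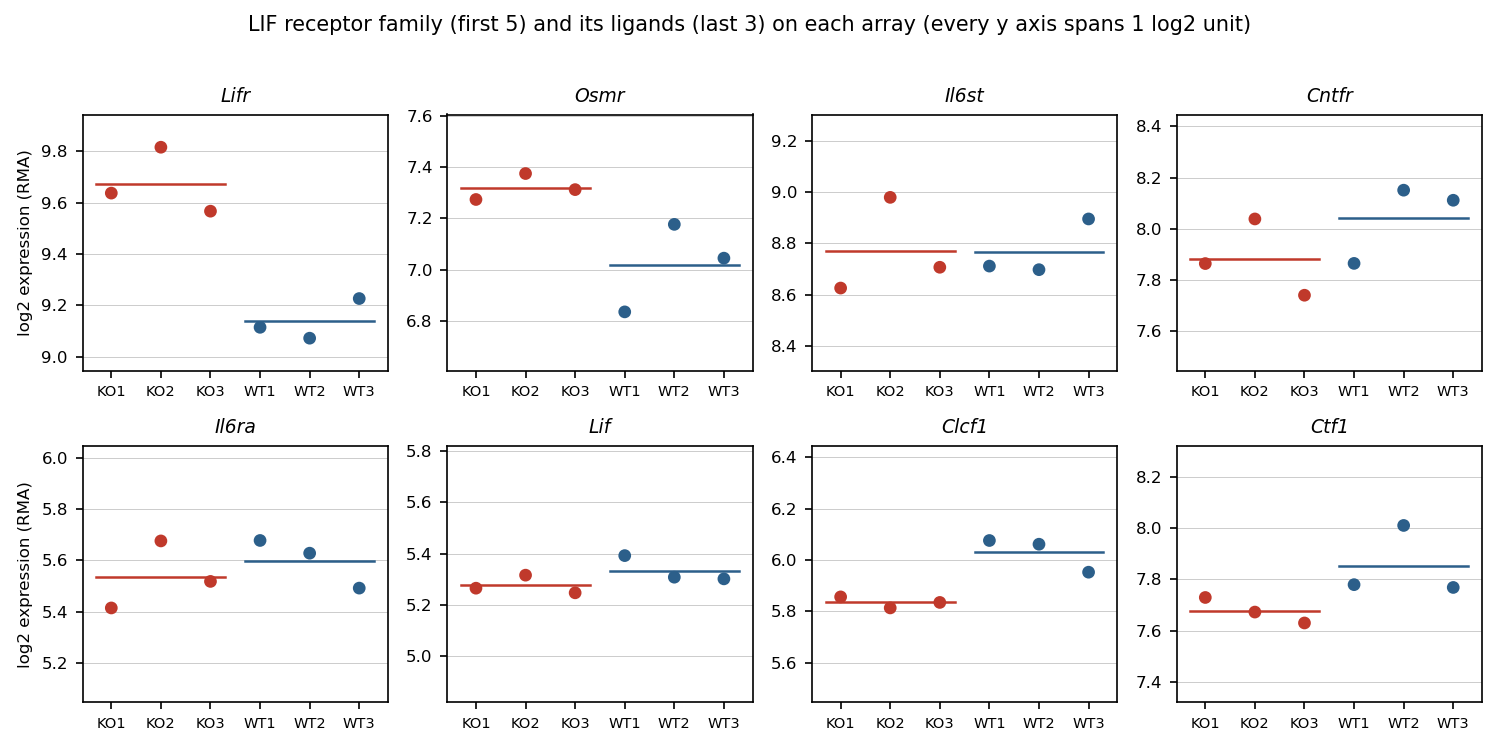
Log2 expression (RMA) of 5 receptor genes (Lifr, Osmr, Il6st, Cntfr, Il6ra) and 3 ligand genes (Lif, Clcf1, Ctf1) of the LIF family on each array, knockout in red and wildtype in blue, lines for group means of 3, every y axis spanning 1 log2 unit. The group means of Lifr differ by 0.54 with a gap of 0.34 between the groups; Osmr lies higher and Clcf1 and Ctf1 lower on all 3 knockout arrays, and Lif, Il6st, Cntfr and Il6ra overlap.

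Downstream of the receptors, none of 19 JAK, STAT, SOCS and PIAS genes was called, with 9 above 0 and 10 below. Pias1, which restrains STAT signalling, had a change of 0.23 (adjusted p = 0.208), Pias3 of 0.19 (0.332) and Stat2 of -0.26 (0.340; -0.17 without wildtype 3). Of 18 tested genes in a list that joins acute-phase genes and genes driven by Stat3 or C/EBP factors, 12 were below 0 and none was called. Lrg1, a secreted glycoprotein, lay close to the floor of 5 on every array. Its values were 5.15, 5.15 and 5.24 in knockout and 5.48, 5.49 and 5.49 in wildtype retina (change -0.31, adjusted p = 0.109). Il1r1, the interleukin 1 receptor, measured 6.39, 6.56 and 6.38 against 6.17, 5.91 and 6.12 (change 0.38, adjusted p = 0.140). Among 5 C/EBP genes Cebpb had a change of -0.31 (-0.20 without knockout 1) and Cebpg of 0.19. Each was without overlap between groups, and neither was called. Cebpb was dim, and its knockout 1 value of 4.91 lay below the floor.

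In the endothelin system 6 of 8 tested genes were below 0, with a median of -0.18 and none called. Ece2, a converting enzyme that makes active endothelin, was at -0.23 (adjusted p = 0.277) and the ligand Edn3 at -0.27 (0.558). Edn3 was at -0.10 without wildtype 2, -0.12 without knockout 1 and -0.42 without knockout 3. Both Edn2 and Ednrb are among these 8.

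Fgf2 differed in sign from most of the FGF list, which holds ligands, receptors, a binding protein (Fgfbp3) and intracellular members such as Fgf14. Of its 16 tested genes 13 were below 0 (median -0.14), and none was called. Fgf1, the other broadly acting FGF, measured 7.23, 7.50 and 7.42 in knockout and 7.72, 7.89 and 7.70 in wildtype retina (change -0.38, adjusted p = 0.140). Fgf14, an intracellular regulator of sodium channels, was at -0.42 (0.140) and Fgfr4 at -0.28 (0.169). Of 13 genes that FGF and ERK signalling induces, none was called and 7 were below 0. Dusp6, the ERK phosphatase, had a change of -0.32 (adjusted p = 0.212). A second, dimmer Dusp6 probe set (mean 4.24) was at -0.06.

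Gfap was the single gene above 0 among 7 glial filament and linker genes, whose median was -0.21; none was called. Synm, a filament partner, was at -0.25 (adjusted p = 0.456; -0.11 without wildtype 1) and Dst, a linker, at -0.21 (0.483; -0.10 without knockout 1 and -0.33 without knockout 2). Vim, the filament protein that Muller glia make at all times, was at -0.22 (adjusted p = 0.497) and its second probe set at -0.34; without wildtype 1, a lens-rich array, the first was at -0.07. Vim was chosen after its values were seen.

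**Figure D5:**
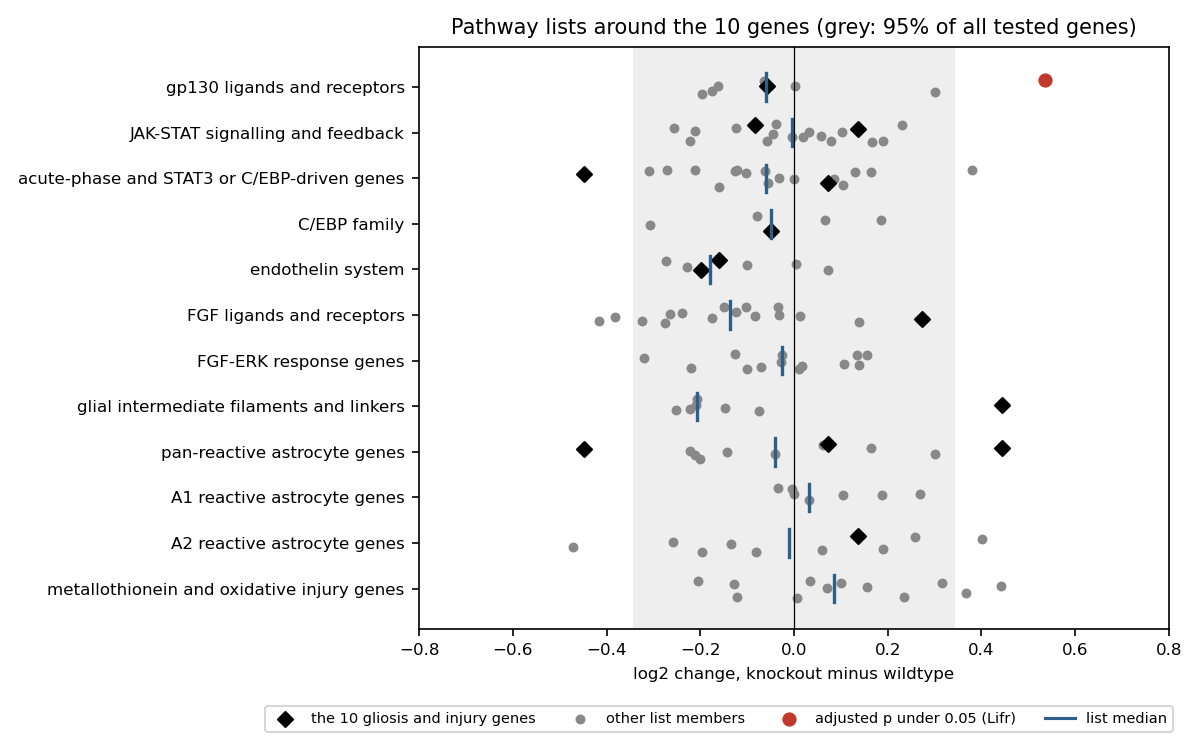
Log2 change of each tested gene (points) in 12 pathway lists; diamonds are the 10 gliosis and injury genes, the red point is Lifr, blue lines are list medians, and the grey band holds 95% of all tested genes. List medians run from -0.21 to 0.09, and Gfap is the only filament gene above 0.

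The astrocyte lists did not move one way. Of 11 pan-reactive genes 5 were above 0 and 6 below (median -0.04), and Timp1 and Cxcl10 did not pass the filter. Of 7 A1 genes 5 were above 0 (median 0.03), with Amigo2, a synaptic adhesion protein, at 0.27 (adjusted p = 0.180). Of 10 A2 genes 5 were above 0 (median -0.0098), with S100a10 at 0.26 (0.209) and Ptx3, a secreted pentraxin, at 0.40 (0.380; 0.22 without knockout 3 and 0.62 without the lens-rich arrays). None of these genes was called. In the metallothionein and oxidative injury list 9 of 12 genes were above 0, with a median of 0.09. There Cdkn1a, the cell cycle inhibitor, had a change of 0.44 (SE 0.079, adjusted p = 0.051) and passed in 2 of 16 alternatives; Mt2, a metal-binding protein of stressed glia, was at 0.37 (adjusted p = 0.332) and Mt3 at 0.23 (0.471). Without wildtype 1, a lens-rich array, Mt2 was at 0.23 and Mt3 at 0.13; Mt3 was at 0.14 without knockout 1.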

How the data were processed

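Per the submitters' processing notes the authors made the values with RMA, which corrects background, normalizes arrays by quantiles and summarises probes; the deposited values are log2 expression per probe set. The software, its version and the genome build were not given in the sources used here. Gene names come from the platform annotation: 23521 probe sets had 1 symbol, 1814 several and 16010 none, and only the first were used.

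Probe sets reaching a log2 value of 5 on 3 or more of the 6 arrays entered the fit, the brightest one standing for its gene, which left 15619 genes. Differences were fitted with limma 3.58.1 (R 4.3.3; eBayes after lmFit, with genotype alone in the model, 2-sided) on all 6 arrays, with Benjamini-Hochberg adjustment over all genes; the threshold was 0.05. The number of arrays limits the precision (median SE 0.095). The fit was tested on simulated data. Promoter sequences are RefSeq's (GRCm38.p6), with entries for 9 of the 10 genes.

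The 10 genes and the lists were chosen with earlier results of these data known. Named are the 10 genes, called members of each list, up to 3 per list with the smallest unadjusted p, and those said to be chosen later. Alternatives were leaving out each array, or both lens-rich arrays; a lens covariate; no filter or a floor of 6; median centring or quantile normalization again; array weights; robust spread with an intensity trend; a block for the replicate number; averaged probe sets; and a minimum fold of 1.5. Figures used matplotlib 3.10.9.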

Additional observations from a re-analysis of the deposited data

How the results depend on the processing

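None of the 10 genes was called in any of the 17 alternatives. With a log2 floor of 6 only 5 of them were tested. The minimum fold of 1.5 could only remove calls, and averaged probe sets left the values of the 10 genes unchanged, so these settings could hardly add a call. The count over all genes, 129, was 74 with no filter, 209 with a floor of 6, 282 with an intensity trend and robust spread, 36 without both lens-rich arrays, and 25 (without wildtype 2) to 141 with each array left out. Knockout and wildtype arrays of the same number did not deviate together (correlations of -0.274, -0.381 and -0.058). The highest correlation, 0.387, joined the lens-rich knockout 2 and wildtype 1. Deviations from means of only 3 arrays cannot show whether the numbers pair littermates. With the number as a replicate block 68 genes were called. The sign of Serpina3n turned without both lens-rich arrays (-0.15; -0.090 to 0.171 with each array left out), and that of Cebpd in 3 settings (-0.188 to 0.045 with each array left out). Il6st turned with a second quantile normalization (-0.019), centring (-0.0019), array weights (-0.023) and without the lens-rich arrays (-0.13; -0.102 to 0.075 with each array left out). Pdgfra turned with array weights (-0.0052) and without the lens-rich arrays (-0.0034; -0.076 to 0.154 with each array left out), and Aldh1l1 without the lens-rich arrays (0.26; -0.222 to 0.191). Gfap, Lcn2, Socs3, Stat3, Edn2, Fgf2, Ednrb and Lif kept their sign in all alternatives where they were tested. The causes were not tested. Signal near the floor limits Edn2 and Lif most.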
